A study of Mus musculus with 6 samples.

Results

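Transcript counts were examined for 54 genes that build and control the mitotic spindle in cultured muscle satellite cells (MuSCs), the stem cells of skeletal muscle. The genes were taken by symbol for their known roles in the G2 and M phases of the cell cycle, that is in kinetochores, the spindle, the spindle checkpoint, entry into and exit from mitosis, and cytokinesis. All 54 symbols were among the 20654 genes of the count table. Of these, 51 were among the 8551 genes with counts high enough to be tested. The other 3 were *Ube2s* (3, 4 and 2 counts in the control libraries against 2, 4 and 1 in the *Piezo1* cKO libraries, replicates 1 to 3), *Kif14* (1, 6 and 6 against 0, 3 and 2) and *Kif20a* (1, 1 and 1 against 2, 1 and 2), which were scarce in both groups.

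The study asked what the loss of PIEZO1, a mechanosensitive calcium-permeable channel, does to MuSCs, and compared RNA from 3 control and 3 *Piezo1* cKO cultures. The cKO mice carried *Piezo1* flox/flox and *Pax7* CreERT2/+, so that tamoxifen induced deletion in cells that express *Pax7*. Controls are labelled wild type, whereas a figure legend of the study names *Pax7* CreERT2/+ cells, which carry the Cre allele, in this comparison. Both groups had a C57BL/6 background. MuSCs were sorted from limb muscle as VCAM1-positive cells lacking CD31, CD45 and Sca1, and were grown for 3 d in growth medium on Matrigel, with 4-hydroxytamoxifen in the medium of both groups. The age of the mice and whether a culture was pooled from several animals were not given in the sources used here, so p-values measure the spread between these cultures.

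Chromosomes attach to spindle microtubules at kinetochores, protein assemblies built on centromeric nucleosomes that contain CENP-A. The spindle checkpoint holds back the anaphase-promoting complex until every kinetochore is attached, after which the chromosomes separate and the cell is cleaved at the spindle midzone. Transcripts of these genes accumulate late in the cell cycle, so their level in a culture moves with the share of cells that are in G2 and M. In RNA from whole cultures, fewer cells in these phases and less RNA per cell cannot be told apart.

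The promoters of many such genes share the cell cycle genes homology region (CHR), bound by the DREAM and MMB complexes, and CCAAT boxes, bound by NF-Y. The 140 bases before the RefSeq transcription start are shown for the 2 members that passed the test and for other named members with a CHR in this stretch, so that the shared elements can be seen. Each sequence runs 5′ to 3′ on the strand of its gene, and capitals mark the CHR and the CCAAT box. The CHR was searched as TTTGAA or its reverse complement TTCAAA and as the palindromic form TTCGAA, and the CCAAT box as CCAAT or its reverse complement ATTGG.
*Prc1*: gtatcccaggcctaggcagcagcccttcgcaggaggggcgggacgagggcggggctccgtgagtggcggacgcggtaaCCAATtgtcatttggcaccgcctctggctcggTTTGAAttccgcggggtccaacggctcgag
*Cenpf*: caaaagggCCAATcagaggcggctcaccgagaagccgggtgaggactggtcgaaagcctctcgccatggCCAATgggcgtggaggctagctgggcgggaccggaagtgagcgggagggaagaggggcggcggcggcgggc
*Cdk1*: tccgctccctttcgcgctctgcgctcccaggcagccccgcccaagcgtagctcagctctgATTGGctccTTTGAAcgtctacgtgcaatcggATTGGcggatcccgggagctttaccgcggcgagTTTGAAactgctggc
*Top2a*: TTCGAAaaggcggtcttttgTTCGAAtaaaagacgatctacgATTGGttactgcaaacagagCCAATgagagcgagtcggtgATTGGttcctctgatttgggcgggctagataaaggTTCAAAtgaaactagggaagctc
*Mki67*: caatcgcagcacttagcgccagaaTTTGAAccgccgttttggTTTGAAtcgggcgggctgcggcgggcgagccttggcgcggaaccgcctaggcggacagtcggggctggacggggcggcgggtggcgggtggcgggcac
*Cenpn*: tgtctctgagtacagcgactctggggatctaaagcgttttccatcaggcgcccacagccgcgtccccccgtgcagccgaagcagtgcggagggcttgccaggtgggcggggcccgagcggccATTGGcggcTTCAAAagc
*Cenpw*: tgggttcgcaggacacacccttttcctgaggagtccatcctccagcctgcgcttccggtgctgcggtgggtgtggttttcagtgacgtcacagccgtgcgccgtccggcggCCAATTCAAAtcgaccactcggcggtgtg
These sequences come from RefSeq on GRCm38.p6 at chr7:80294336-80294475 (plus strand) for *Prc1*, chr1:189688087-189688226 (minus) for *Cenpf*, chr10:69352913-69353052 (minus) for *Cdk1*, chr11:99024190-99024329 (minus) for *Top2a*, chr7:135716380-135716519 (minus) for *Mki67*, chr8:116921600-116921739 (plus) for *Cenpn* and chr10:30200541-30200680 (minus) for *Cenpw*. The *Prc1* sequence precedes the start nearest to a CHR, of 2 starts listed. GENCODE places the last 26 bases shown for *Prc1* and for *Cdk1*, 20 for *Cenpw* and 10 for *Cenpn* inside the gene. In *Prc1* the CHR began 30 bases before the start and a CCAAT box 62 bases before it. *Cdk1* held 2 CHRs, beginning 71 and 15 bases before the start, and *Top2a* held 3. In *Cenpw* the letters of the CCAAT box and the CHR overlap. *Cenpf* had CCAAT boxes 132 and 71 bases before its start and no CHR letters in this window.

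Promoter sequence was at hand for 46 of the 54 genes and for 27025 genes in all, whether or not they were tested here. Within 250 bases before the start, on either strand, CHR letters were present in 21 of these 46 (45.7%) and in 19.6% of 27025 genes, and CCAAT letters in 33 (71.7%) and in 37.5%. Within 100 bases the shares were 15 of 46 (32.6%) against 7.2% for CHR, and 30 of 46 (65.2%) against 21.6% for CCAAT. A match of letters describes the sequence and does not show binding. The tested members with a CHR within 250 bases had a median log2 fold change of -0.17 (19 genes), and those without it -0.18 (25 genes), and the 2 medians were close.

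The libraries held 740936, 931168 and 891531 counts in control 1 to 3 and 810096, 726378 and 769295 counts in cKO 1 to 3, each count being a cDNA molecule tagged with a unique molecular identifier (UMI). A floor of 3 counts was worth 3.22 to 4.13 CPM, the count scaled to a common library total. The *Piezo1* counts of the controls were 11, 5 and 6, against 7, 12 and 9 for *Piezo1* cKO, a log2 fold change of 0.42 (standard error, SE, 0.46, edgeR adjusted p = 0.791). The groups overlapped at these low counts, and a count over all exons includes transcripts from which the floxed exons are missing. Each direction given below rests on the labels. The cells were myogenic by their markers, with *Myod1*, a determination factor, at 1569, 1366 and 1441 CPM in control and 1489, 1087 and 1353 CPM in cKO libraries. Of 8 tested myogenic markers, 5 had a log2 fold change above 0 and 3 below 0, and none had an edgeR adjusted p under 0.05. *Cdh15* was higher in every cKO library (0.53, edgeR adjusted p = 0.118) and *Vcam1* lower in every one (-0.45, edgeR adjusted p = 0.185). *Pax7* had 5 to 26 counts per library (-0.64, edgeR adjusted p = 0.481).

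Most mitotic genes had slightly lower values in *Piezo1* cKO MuSCs, and 2 of them passed the test. *Prc1*, a microtubule bundler of the spindle midzone, fell by 56.9%, and *Cenpf*, a large protein of the outer kinetochore, fell by 35.6%. In 25 of 51 members the log2 fold change was within 0.2 of 0. No member was called higher. The highest fold change was that of *Pttg1*, which encodes securin, the inhibitor of separase, and it did not pass the test.

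In numbers, 2 of the 51 tested members (3.92%) were called at an adjusted p under 0.05 by edgeR, and 0.784% of all genes tested were called (67 of 8551, 40 higher and 27 lower). Both members were lower, a direction in which 0.316% of all genes were called. At an unadjusted p under 0.05 there were 10 lower members (19.6%, background 5.78%) and 1 higher (1.96%, background 6.14%). The log2 fold change was below 0 in 45 of 51 members (88.2%) and in 4261 of 8551 genes (49.8%). Its median was -0.18 in the members (quartiles -0.33 and -0.10) and 0.0021 in all genes (quartiles -0.17 and 0.19), and 13 members lay below the first decile of all genes. With total counts in place of trimmed mean of M values (TMM) normalisation, 49 of 67 called genes were higher (73.1% against 59.7%) and 1 member, *Prc1*, was called, with 40 of 51 members below 0. This scaling moved the median of all genes to 0.078. The median of the members minus that of all genes was -0.188 with it and -0.186 with TMM.

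**Figure D1:**
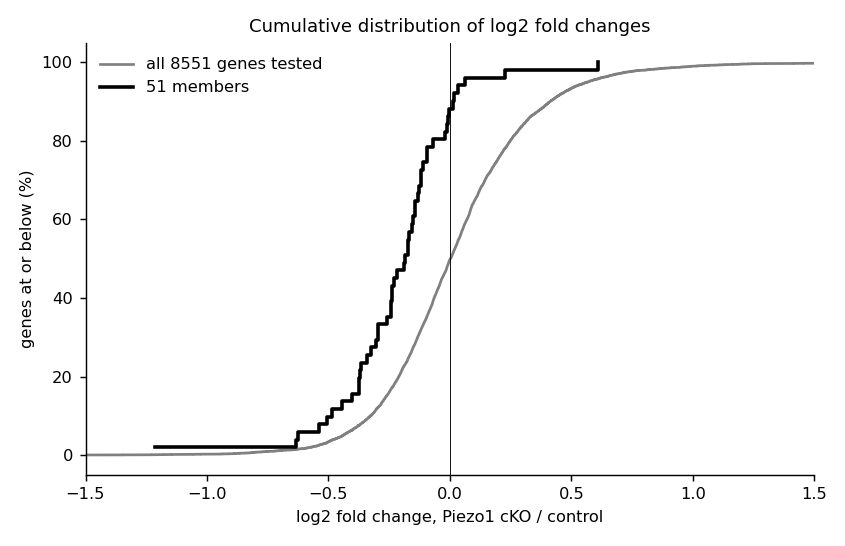
Cumulative share of genes (y axis, percent) at or below each log2 fold change of *Piezo1* cKO against control (x axis), for all 8551 genes tested (grey) and the 51 mitotic members (black). The black curve lies to the left of the grey one over most of its course, with medians of -0.18 and 0.0021, and its lowest point is *Prc1* at -1.21.

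The 3 cKO values lay below all 3 control values in 11 members (21.6%), against 8.31% of all genes tested, and above them in 1 member, *Pttg1* (1.96%), against 8.2%. The 11 were *Cenpa*, *Spc24*, *Knl1*, *Cenpe*, *Cenpf*, *Bub3*, *Cdk1*, *Kif20b*, *Kif22*, *Prc1* and *Hmmr*, the last being named only to complete this count. These genes share cells and phases of the cycle, so their values are not independent observations.

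*Prc1* lies at chr7:80294450-80316259 (GRCm38, plus strand) and its product cross-links antiparallel microtubules, recruiting other factors to the midzone in anaphase. Its levels were 53.2, 41.3 and 40.1 CPM in control libraries 1 to 3 and 22.8, 18.5 and 15.9 CPM in cKO libraries 1 to 3. Every cKO library was below every control library by a wide margin. The means were 44.9 ± 7.24 and 19.1 ± 3.49 CPM (SD, n = 3 each), which gave a log2 fold change of -1.21 (SE 0.28, edgeR adjusted p = 0.0114). DESeq2 gave -1.24 with no adjusted p, because its independent filtering set the gene aside, and the edgeR call was lost without control 1, cKO 2 or cKO 3 in turn (adjusted p = 0.0568, 0.178 and 0.109). The exons of *Prc1* share 911 of 8225 bases with those of *Rccd1* on the opposite strand, which had 8 to 12 counts per library, and the strand setting of the counting was not given in the sources used here.

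**Figure D2:**
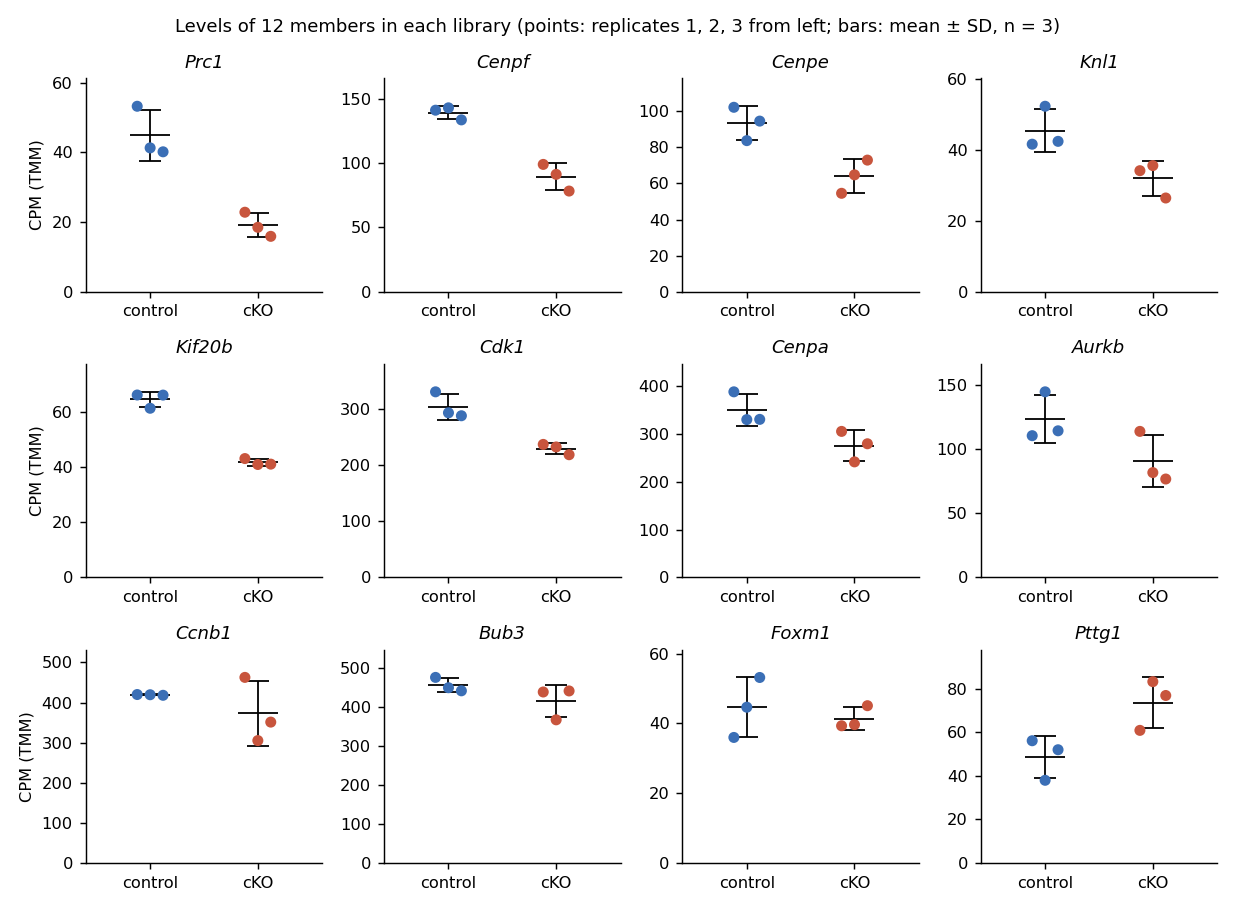
Levels of 12 members in each library, in CPM after TMM normalisation (y axis, from 0), for control (blue) and *Piezo1* cKO (red), with replicates 1, 2 and 3 from left and bars for the mean ± SD (n = 3). *Prc1*, *Cenpf*, *Cenpe*, *Knl1*, *Kif20b*, *Cdk1*, *Cenpa* and *Bub3* are lower in every cKO library than in any control library, *Pttg1* is higher in every one, and *Aurkb*, *Ccnb1* and *Foxm1* overlap.

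In the outer kinetochore, the layer that binds microtubules, 6 of 7 members were below 0 and the median log2 fold change was -0.26. *Cenpf* (chr1:189640606-189688086, minus strand) had 141, 143 and 133 CPM in control and 98.9, 91.1 and 78.2 CPM in cKO libraries, and the groups were well apart. The means of 139 ± 4.95 and 89.4 ± 10.5 CPM (SD, n = 3 each) gave a log2 fold change of -0.63 (SE 0.16, edgeR adjusted p = 0.0294). This call was lost in DESeq2 (adjusted p = 0.178), with the total-count and cyclic loess scalings, when the replicate number was entered as a block (edgeR adjusted p = 0.101) and in 4 of 6 fits that left out 1 library, whereas the fold change kept its sign and lay between -0.72 and -0.55 in those 6 fits.

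*Cenpe*, the kinesin that carries chromosomes along microtubules to the spindle equator, had 102, 83.7 and 94.5 CPM in control and 54.5, 64.7 and 72.9 CPM in cKO libraries. Although the groups did not overlap, its log2 fold change of -0.54 did not pass the test (SE 0.19, edgeR adjusted p = 0.167). *Knl1*, the scaffold on which checkpoint proteins gather, ran from 41.7 to 52.4 CPM in control and from 26.5 to 35.7 CPM in cKO libraries (log2 fold change -0.51, edgeR adjusted p = 0.413). The NDC80 complex makes the main attachment to microtubules, and none of its 4 subunits passed the test. *Spc24* had 233, 222 and 221 CPM against 214, 179.6 and 178 CPM (log2 fold change -0.24, edgeR adjusted p = 0.506). *Ndc80* itself was at 41.1 ± 7.11 and 41.7 ± 4.70 CPM (SD, n = 3 each), with a log2 fold change of 0.015 that turned negative under cyclic loess (-0.023).

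In the inner kinetochore, which sits on the centromere, no member passed the test, 1 was lower at an unadjusted p under 0.05 and the median of 6 members was -0.08. *Cenpa*, the histone H3 variant that marks centromeres, had 388, 330.2 and 331 CPM in control and 305, 242 and 279.6 CPM in cKO libraries. All its cKO values lay below the control values, with a log2 fold change of -0.34 (SE 0.14, edgeR adjusted p = 0.253). *Cenpn*, which reads the CENP-A nucleosome, had 15.8, 33.5 and 29.5 CPM against 19.0, 21.1 and 17.2 CPM, overlapping groups at a low level (log2 fold change -0.49, SE 0.32, edgeR adjusted p = 0.573). *Cenpw* was on the other side of 0, at 62.2 ± 22.4 CPM in control and 71.8 ± 8.09 CPM in cKO libraries (SD, n = 3 each), where control 2 alone was low, at 36.8 CPM. Without control 2 its log2 fold change of 0.23 became -0.05.

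Spindle checkpoint members had a median log2 fold change of -0.13 over 5 genes, of which 0 had an unadjusted p under 0.05. *Bub3*, which docks checkpoint kinases on KNL1, had 476, 449.5 and 442 CPM in control and 439, 367 and 441 CPM in cKO libraries. Its groups did not overlap, but control 3 and cKO 3 were less than 1 CPM apart. *Mad2l1*, which encodes the checkpoint protein MAD2, was at 121 ± 12.0 and 97.1 ± 16.3 CPM (SD, n = 3 each, log2 fold change -0.33, edgeR adjusted p = 0.426). *Bub1b*, which encodes BUBR1, was at 99.4 ± 18.2 and 104 ± 19.4 CPM (SD, n = 3 each), which gave a log2 fold change of 0.06 that changed sign without control 1 (-0.05) and without cKO 1 (-0.11).

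The chromosomal passenger complex, which corrects faulty attachments and then directs cytokinesis, had 4 members, all below 0 with a median of -0.21. *Aurkb*, its kinase, had 111, 145 and 115 CPM in control and 114, 81.9 and 76.9 CPM in cKO libraries. The first cKO library was inside the control range and the other cKO libraries were below it (log2 fold change -0.44, SE 0.17, edgeR adjusted p = 0.234). When cKO 1 was left out, *Aurkb* was called as well, at -0.65. *Birc5*, which encodes survivin, the subunit that docks the complex on chromatin, was at 396 ± 22.5 and 348 ± 47.6 CPM (SD, n = 3 each, log2 fold change -0.18, edgeR adjusted p = 0.625).

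**Figure D3:**
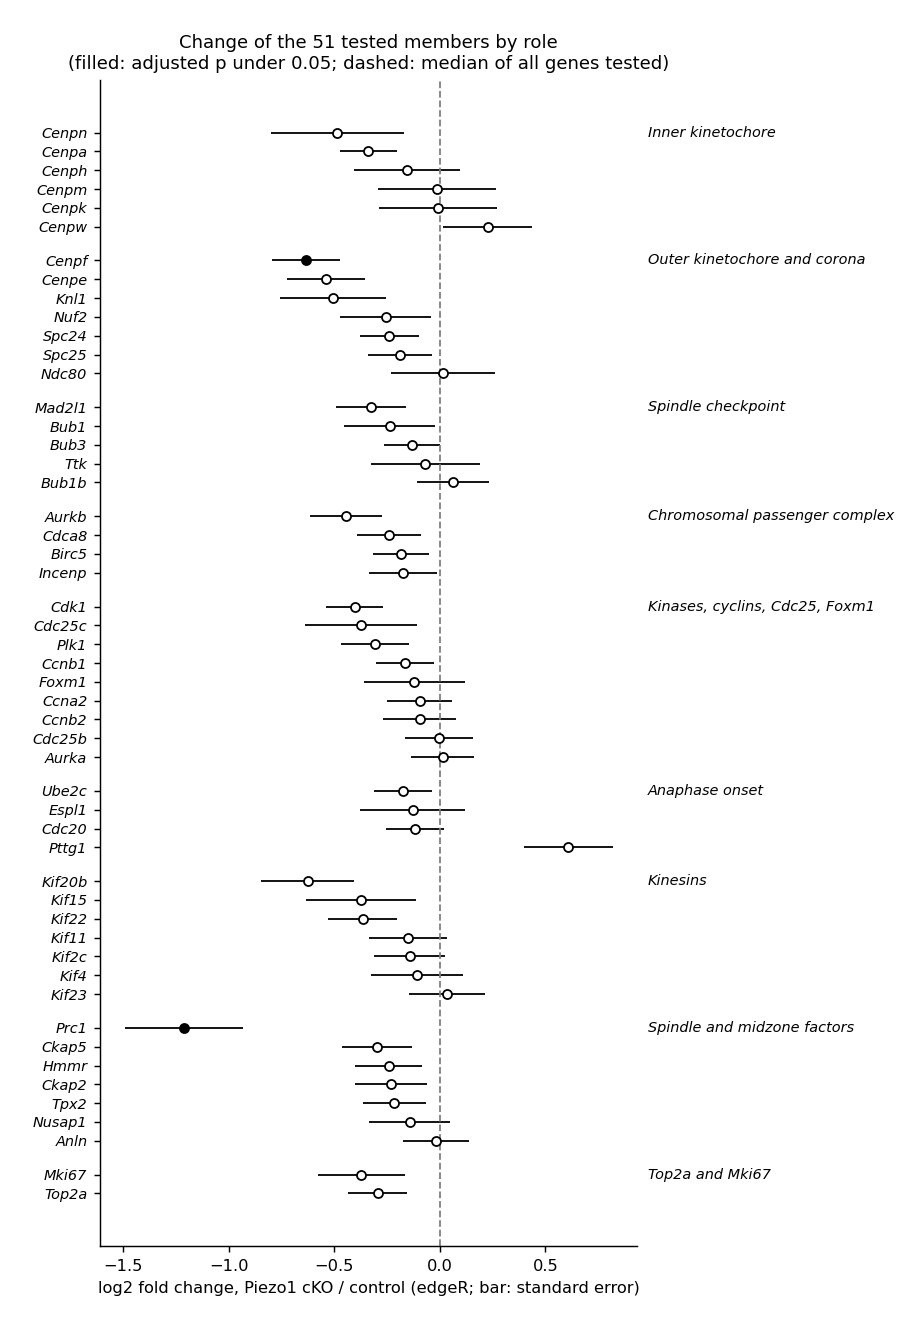
Log2 fold change of *Piezo1* cKO against control (x axis) for the 51 tested members (y axis), grouped by role, with bars for the standard error from edgeR, filled points for an adjusted p under 0.05 and a dashed line at the median of all genes tested. *Prc1* (-1.21) and *Cenpf* (-0.63) are filled, 45 points lie below 0, and *Pttg1* (0.61) stands alone on the right.

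Among the mitotic kinases, cyclins, CDC25 phosphatases and the transcription factor FOXM1, 8 of 9 members were below 0, the median was -0.12 and none was called. *Cdk1* (chr10:69335146-69352938, minus strand), the kinase that drives entry into mitosis, had 331, 293 and 288 CPM in control and 237, 232 and 219 CPM in cKO libraries. The groups were apart and the cKO libraries close together, with a log2 fold change of -0.40 (SE 0.14, edgeR adjusted p = 0.159). Its partner *Ccnb1*, cyclin B1, was almost constant in control, at 419.9, 419 and 418 CPM, and spread from 305 to 463 CPM in cKO libraries, on both sides of control (log2 fold change -0.17, edgeR adjusted p = 0.683). *Foxm1*, which activates late cell cycle genes, was at 44.6 ± 8.59 and 41.3 ± 3.23 CPM (SD, n = 3 each, log2 fold change -0.12, edgeR adjusted p = 0.905). *Aurka*, the centrosomal Aurora kinase, was at 162 ± 18.6 and 163 ± 24.0 CPM (SD, n = 3 each), and its log2 fold change of 0.013 became -0.0020 in DESeq2.

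Of the 4 tested genes of anaphase onset, 3 were below 0, the median log2 fold change was -0.12 and none was called. *Pttg1* (chr11:43420250-43426251, minus strand) had 56.1, 37.9 and 52.0 CPM in control and 60.8, 83.2 and 76.9 CPM in cKO libraries. Every cKO value was above every control value, opposite to most members, with means of 48.7 ± 9.52 and 73.6 ± 11.5 CPM (SD, n = 3 each) and a log2 fold change of 0.61 (SE 0.21, edgeR adjusted p = 0.168). It stayed between 0.45 and 0.73 when each library was left out in turn, and it was not called in any of these 6 fits. *Ube2c*, the ubiquitin-conjugating enzyme of the anaphase-promoting complex, had 489, 472 and 476 CPM in control and 488, 332 and 453 CPM in cKO libraries. Here cKO 2 was the lowest, cKO 3 was also below every control and cKO 1 lay inside the control range (log2 fold change -0.17, edgeR adjusted p = 0.667). Of the 2600 exon bases of *Ube2c*, 592 are shared with *Tnnc2* on the opposite strand.

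Of the 7 tested kinesins, 6 were below 0 with a median of -0.15 and none was called. *Kif20b*, a motor of late mitosis and abscission, had 66.2, 61.3 and 66.1 CPM in control and 43.1, 40.9 and 41.1 CPM in cKO libraries, both groups being tight. Its log2 fold change of -0.63 was as low as that of *Cenpf* but had a larger standard error, 0.22 against 0.16, and did not pass the test (edgeR adjusted p = 0.176). *Kif22*, a chromokinesin that pushes chromosome arms outwards, had 119, 154 and 118 CPM against 112, 91.1 and 102 CPM, groups that were close but did not overlap (log2 fold change -0.37, edgeR adjusted p = 0.342). *Kif23*, the motor of the centralspindlin complex at the midzone, was at 92.2 ± 28.3 and 95.4 ± 13.7 CPM (SD, n = 3 each), and its log2 fold change of 0.03 changed sign without control 1 (-0.12), control 3 (-0.04) or cKO 1 (-0.09).

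All 7 of the other spindle and midzone factors were below 0, with a median of -0.23, and *Prc1* was the 1 called. *Tpx2*, which nucleates microtubules around chromosomes and activates Aurora A, was at 181 ± 25.3 and 156 ± 20.9 CPM (SD, n = 3 each, log2 fold change -0.22, edgeR adjusted p = 0.595). *Top2a*, the topoisomerase that untangles sister chromatids, had 221, 300.0 and 226 CPM in control and 226, 184 and 201 CPM in cKO libraries, so that control 2 was high and the rest overlapped (log2 fold change -0.30, edgeR adjusted p = 0.393). *Mki67*, the proliferation marker Ki-67 that coats mitotic chromosomes, had 56.1, 89.2 and 68.5 CPM against 57.0, 46.2 and 63.6 CPM, again with control 2 the highest and cKO 2 the lowest (log2 fold change -0.37, edgeR adjusted p = 0.474).

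The members varied between libraries of the same group. Their mean log2 CPM was 6.65, 6.81 and 6.70 in control and 6.62, 6.43 and 6.51 in cKO libraries, or 6.72 ± 0.08 and 6.52 ± 0.10 (SD, n = 3 each). The groups did not overlap, but control 1 and cKO 1 were closer to each other than the replicates within either group were on average. As a share of all counts, the 54 members took 0.658% (95% exact Clopper-Pearson interval 0.640 to 0.676), 0.721% (0.704 to 0.738) and 0.668% (0.651 to 0.685) in control, and 0.672% (0.655 to 0.690), 0.588% (0.570 to 0.606) and 0.606% (0.588 to 0.623) in cKO libraries, where cKO 1 lay inside the control range. These intervals cover counting error only. Within control, control 2 held the highest value for 29 of 51 members. Within the cKO group, cKO 1 held the highest for 29 and cKO 2 the lowest for 26. The median log2 fold change of the members was -0.29 without cKO 1 and -0.11 without cKO 2, and without cKO 2 only 6 of all genes tested were called.

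**Figure D4:**
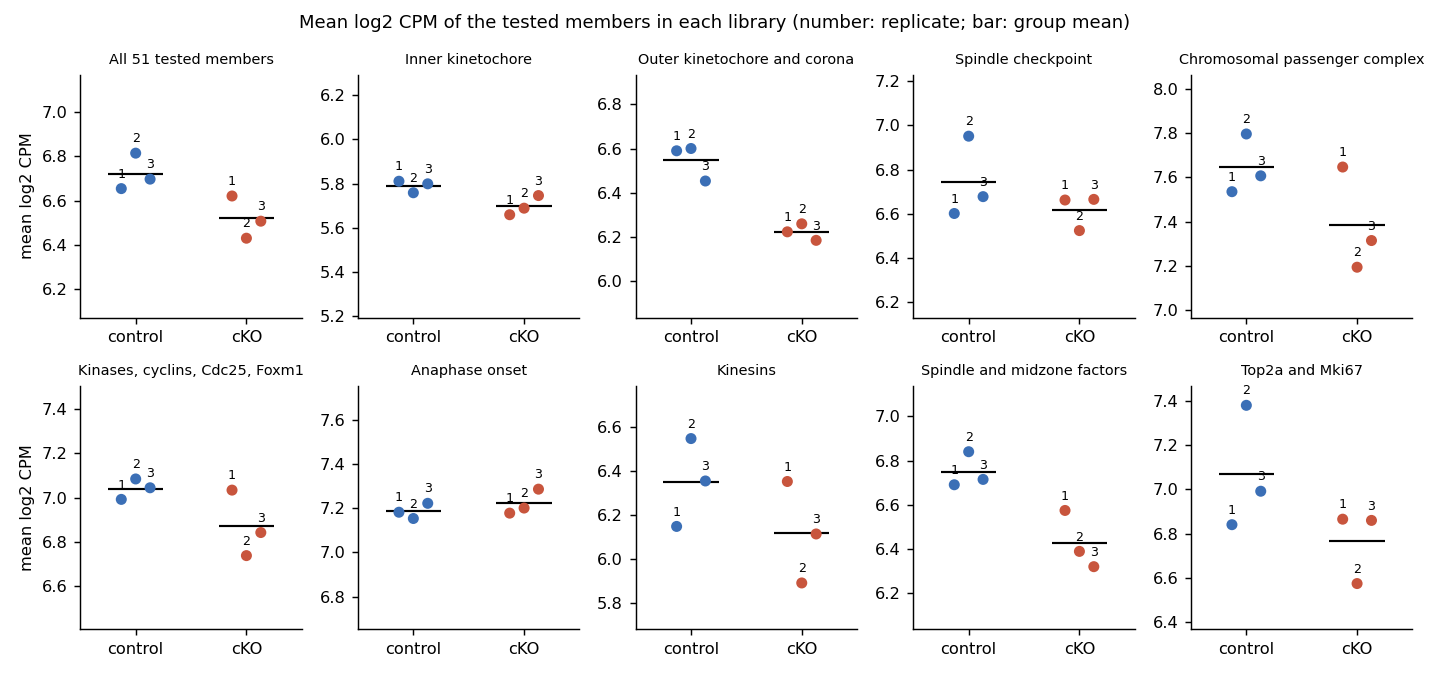
Mean log2 CPM (y axis, each panel spanning the same range of 1.1 units) of the 51 tested members and of each role in control (blue) and *Piezo1* cKO (red) libraries, with the replicate number at each point and a bar for the group mean. For all members the control libraries lie between 6.65 and 6.81 and the cKO libraries between 6.43 and 6.62. The inner kinetochore, the outer kinetochore and the spindle and midzone factors are lower in every cKO library, which for the midzone factors rests on *Prc1*, and the anaphase genes are level. In the inner kinetochore, control 2 (5.759) and cKO 3 (5.746) are almost level.

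By role, the outer kinetochore had library means of 6.59, 6.60 and 6.45 in control and 6.22, 6.26 and 6.18 in cKO libraries, and the spindle and midzone factors 6.69, 6.84 and 6.71 against 6.57, 6.39 and 6.32. In both roles the groups were apart, and 2 of the 7 midzone factors and 4 of the 7 outer kinetochore genes were lower with no overlap, against 8.31% of all genes tested. The separation of the midzone factors rested on *Prc1*, at 53.2 CPM in control 1 and 22.8 CPM in cKO 1. In CPM summed over these factors without TMM normalisation the groups overlapped, at 702, 839 and 738 in control and 728, 684 and 629 in cKO libraries. The inner kinetochore means of 5.81, 5.76 and 5.80 against 5.66, 5.69 and 5.75 did not overlap either, but control 2 (5.759) and cKO 3 (5.746) were almost level. In this role 1 of 6 genes, *Cenpa*, was lower with no overlap. In the anaphase genes, the means of 7.18, 7.15 and 7.22 and of 7.18, 7.20 and 7.29 overlapped. Differences between roles were not tested.

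Across the 51 members the Spearman correlation of log2 fold change with the exon length of the gene was -0.361, whereas it was 0.0348 across 8384 genes. The longer members had a median of -0.28 and the shorter ones -0.17. This is a description across genes that share libraries, with counts placed near the 3' end by oligo-dT priming, and the part of length in the changes was not tested. The members were spread over 17 chromosomes.

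Other genes of the same machinery were read from the same fit. None of the 7 lists that follow, up to the CDK inhibitors, had a member called by edgeR in that fit or by limma-voom. DESeq2 called none either, but it gave many of these genes no adjusted p and so could not call them. Among those were *Cdc6*, *Cdkn2b* and most tested genes of the kinetochore list. Other edgeR settings called a few of their genes, which are given with the list they belong to. For comparison, 49.8% of all genes tested were below 0. At an unadjusted p under 0.05, 5.78% of them were lower and 6.14% higher. Of 30 tested kinetochore genes outside the 54, 23 were below 0 with a median log2 fold change of -0.13, and at an unadjusted p under 0.05 there were 2 lower and 1 higher. The 2 with the smallest p lay on opposite sides, *Mad1l1*, a checkpoint gene, at 0.74 (edgeR adjusted p = 0.312), and *Cenpq*, of the inner kinetochore, at -0.51 (edgeR adjusted p = 0.379). Among 15 subunits and regulators of the anaphase-promoting complex, 11 were below 0, the median was -0.05, and 2 were lower and 1 higher at an unadjusted p under 0.05. Its inhibitor *Fbxo5* (EMI1) had 101, 87.0 and 83.8 CPM against 71.0, 60.8 and 50.4 CPM (log2 fold change -0.57, edgeR adjusted p = 0.159), and its activator *Fzr1* (CDH1) had 127, 126 and 132 CPM against 97.6, 88.5 and 94.1 CPM (log2 fold change -0.46, edgeR adjusted p = 0.181). Both genes were lower in every cKO library.

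Of 26 tested genes of cytokinesis and the midbody, the structure at which daughter cells part, 15 were below 0 with a median of -0.02. At an unadjusted p under 0.05, 3 were lower, where 5.78% of all genes tested were. *Septin7*, a filament-forming GTPase, was lower in every cKO library (log2 fold change -0.38, edgeR adjusted p = 0.176), as was *Cep55*, which recruits the abscission machinery (-0.51, edgeR adjusted p = 0.247). *Chmp4b*, of the abscission machinery, was called by edgeR with no filter and without control 2. Besides Aurora kinase, the study stained citron kinase and RhoA in dividing cells. *Cit*, the gene of citron kinase, had 27.3, 51.3 and 41.3 CPM in control and 35.5, 48.9 and 39.8 CPM in cKO libraries, and its log2 fold change of 0.02 changed sign without control 1 (-0.16) and without cKO 2 (-0.11). *Rhoa*, the GTPase of the cleavage furrow, had 181, 143 and 133 CPM against 155, 145 and 119 CPM (log2 fold change -0.12, edgeR adjusted p = 0.843), and was at 0.02 without control 1. The groups overlapped in both genes, and transcript counts do not report the place or activity of the proteins.

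Among 29 tested centrosome and spindle pole genes, 17 were below 0 with a median of -0.08, and 3 were lower at an unadjusted p under 0.05 (5.78% of all genes tested were). *Pcnt*, the pericentriolar scaffold, had a log2 fold change of -0.68 (edgeR adjusted p = 0.228), and *Plk4*, the kinase of centriole duplication, one of -0.48 (edgeR adjusted p = 0.332). The 18 tested regulators of mitotic entry and exit were split evenly, 9 on either side of 0, with a median of -0.03, and 0 had an unadjusted p under 0.05. The 2 with the smallest p were *Cdc25a*, a phosphatase that activates CDKs (log2 fold change -0.40, edgeR adjusted p = 0.448), and *Ppp2r2a*, a regulatory subunit of the phosphatase PP2A (-0.26, edgeR adjusted p = 0.458), and the groups overlapped in both.

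DNA replication genes, which act in the preceding S phase, were mostly below 0 as well. Of 43 tested, 41 were below 0, the median log2 fold change was -0.27, 13 were lower with no overlap between groups, and 14 were lower at an unadjusted p under 0.05, where 8.31% and 5.78% of all genes tested were. *Cdc6*, which licenses replication origins, had 59.0, 104 and 56.7 CPM in control and 53.2, 30.4 and 35.8 CPM in cKO libraries (log2 fold change -0.89, edgeR adjusted p = 0.0567). It was called by edgeR with DESeq2 size factors, with no filter, with at least 10 counts in every library and without control 1, control 3 or cKO 1. *Tk1* was called without control 3, and *Mcm5* and *Prim1*, a helicase and a primase subunit, without cKO 1. *Tk1*, thymidine kinase, had a log2 fold change of -0.52 (edgeR adjusted p = 0.118). Among 12 CDK inhibitors and G1 cyclins the median was 0.15, 3 were higher and 2 lower at an unadjusted p under 0.05, and *Cdkn2b*, an inhibitor of CDK4 and CDK6, and *Ccnd3*, cyclin D3, were higher in every cKO library (0.77 and 0.63, edgeR adjusted p = 0.0642 and 0.0996). *Cdkn2b* was called by edgeR with total counts, with at least 10 counts in every library and without control 1 or cKO 1, and *Ccnd2*, cyclin D2, without control 3.

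**Figure D5:**
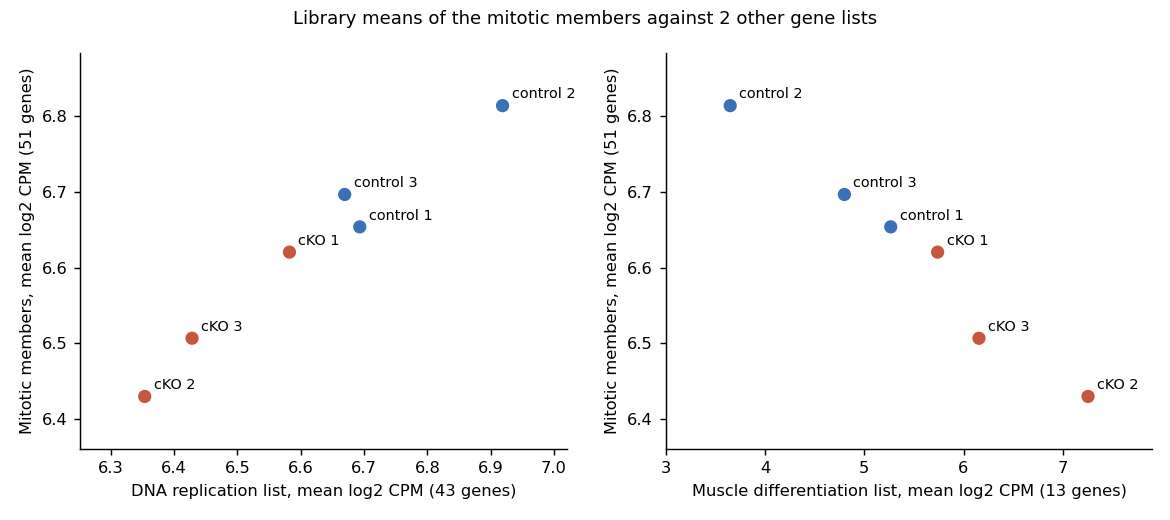
Mean log2 CPM of the 51 mitotic members in each library (y axis) against that of 43 DNA replication genes (left, x axis) and 13 muscle differentiation genes (right, x axis), with control in blue and *Piezo1* cKO in red. Control 2 has the highest mitotic mean, 6.81, and the lowest differentiation mean, 3.65, and cKO 2 has the lowest mitotic mean, 6.43, and the highest differentiation mean, 7.26.

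For muscle differentiation genes, all 13 tested were above 0, with a median log2 fold change of 2.01, and 1 was called (0.784% of all genes were), *Tnni2*, a fast troponin (2.16, edgeR adjusted p = 0.00459). It was not called without cKO 2 and was not tested when at least 10 counts were asked of every library, and with the replicate block *Acta1* and *Tnnc1* were called besides it. DESeq2, which gave *Tnni2* no adjusted p, called *Acta1*, and limma-voom called 10 of the 13, these 3 genes among them. Without TMM normalisation, the list of 21 genes in the table summed to 599, 209 and 468 CPM in control and 827, 2614 and 1189 CPM in cKO libraries. *Myog*, which encodes myogenin, the factor of commitment to differentiation, had 57.5, 3.35 and 53.1 CPM in control and 79.9, 268 and 122 CPM in cKO libraries. The library lowest in mitotic genes, cKO 2, was highest in differentiation genes, and control 2 stood at the other end of both. Myoblasts leave the cell cycle as they differentiate, and the part of differentiated cells in the lower mitotic counts was not tested.

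Markers of other cells were also read in each library, and their part in the mitotic result was not tested. Sums over these lists are CPM without TMM normalisation, whereas CPM of single genes are TMM-normalised. The fibroblast list of 7 genes summed to 258, 377 and 434 CPM in control and 326, 352 and 309 CPM in cKO libraries. *Col3a1* was the most abundant (157 to 273 CPM in control and 245 to 285 CPM in cKO libraries). Its log2 fold change was above 0, at 0.41, with overlapping groups (edgeR adjusted p = 0.265). Of the 3 tested genes in the list 1 was called, *Dcn*, which encodes decorin and fell from 18, 23 and 37 counts to 8, 5 and 3 counts (log2 fold change -2.17, edgeR adjusted p = 3.9e-04). *Cd34*, which quiescent MuSCs also express, had 53, 172 and 91 counts in control against 39, 23 and 35 in cKO libraries, lower in each (log2 fold change -1.59, adjusted p = 0.181 in edgeR and 8.2e-04 in DESeq2, which called it). *Pdgfra* had 1 to 8 counts and *Lum* 0 to 4 counts per library. *Ly6a* had 2, 2 and 3 counts in control against 5, 8 and 9 in cKO libraries, too few for a test. Endothelial markers summed to between 7.85 and 20.8 CPM, highest in cKO 3, where *Tek* had 9 counts. In the other libraries *Tek* had 1 to 5 counts. *Egfl7* had 2 to 6 counts, *Pecam1* 0 to 2 counts and *Tie1* 0 in every library. Sums of 3 immune markers, led by *Cd68* at 5 to 13 counts, were between 9.45 and 26.8 CPM. Pericyte markers summed to 41.8, 31.1 and 38.1 CPM in control and 58.0, 67.5 and 92.3 CPM in cKO libraries, led by *Cspg4* (log2 fold change 0.76, edgeR adjusted p = 0.143), with *Myh11* at 0 or 1 count.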

How the data were processed

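The counts were made by the authors and deposited without normalisation, with 1 column per library. RNA (total, from MuSCs cultured for 3 d) was reverse transcribed with barcoded oligo-dT primers carrying UMIs, reads were mapped to GRCm38 with STAR 2.7.9a and assigned to genes with featureCounts 2.0.1, and UMIs were counted with UMI-tools 1.1.1, per the labels and the study's methods. The settings for strand and for reads that map to several places were not given in the sources used here.

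Analysis was done in R 4.3.3. The main test was the quasi-likelihood test of edgeR 4.0.16 on all 6 libraries (TMM normalisation, robust fit, genes kept by filterByExpr at a minimum of 10 counts, Benjamini-Hochberg adjustment over 8551 genes, called at an adjusted p under 0.05). CPM are TMM-normalised, apart from the floor of 3 counts and the sums over a list, which use the library total alone. Mean log2 CPM used a prior count of 2. *Piezo1* did not pass the filter and was kept for its own test. Alternatives were DESeq2 1.42.0, limma-voom (limma 3.58.1), other scalings and filters, a replicate block, thinned libraries and each library left out in turn. No pair of libraries of a group agreed within sampling noise.

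The members and the gene lists were chosen with earlier results of these data known. Members named were those called by edgeR or DESeq2, those with the highest CPM, smallest p or largest change in each role, the 6 lowest and 6 highest fold changes, and *Cdk1*, *Ccnb1*, *Foxm1*, *Mki67*, *Top2a* and *Aurkb*. In each other list, the genes called or else the 2 with the smallest p were named, besides *Cit*, *Rhoa* and marker genes. *Myog*, *Tnnc1*, *Acta1*, *Mcm5*, *Prim1*, *Ccnd2*, *Chmp4b*, *Cd34*, *Cdh15*, *Vcam1*, *Pax7* and *Ly6a* were named after their values were seen, as were *Cenpf* among the promoters and *Hmmr*. Of the named members with a CHR in the 140 bases shown, 3 were left out because over 30 of those bases lay inside the GENCODE gene. Gene positions were matched by symbol to GENCODE on GRCm38 for all 54 members. Only the edgeR test was tried on simulated counts, with changes larger than that of any member. Genes that are not in the table were not analysed here.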

Additional observations from a re-analysis of the deposited data

How the results depend on the processing

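The median log2 fold change of the members was below 0 under every alternative run, from -0.20 with DESeq2 to -0.11 with total counts, and from -0.29 to -0.11 when each library was left out in turn. The count of calls was less stable. All genes called were 67 with edgeR (40 higher and 27 lower) and 27 with DESeq2 (12 higher and 15 lower). A figure legend of the study, which used DESeq2, gives 15 genes as up-regulated and 12 as down-regulated, the same counts in the other order. The reason was not tested. Calls numbered 32 with cyclic loess, 129 with no filter, 124 at an adjusted p under 0.1 and 6 to 174 without 1 library. Members called were 2 with edgeR, 0 with DESeq2 (6 lower and 1 higher at an unadjusted p under 0.05, where 1.73% and 1.26% of all genes were, and 19 without an adjusted p, *Prc1* among them), 1 with total counts, 1 with cyclic loess and 1 with the replicate block, and 0 to 3 without 1 library, where members lower with no overlap numbered 11 to 22 (21.6% to 43.1%, where 11.8% to 15.8% of all genes in these fits were, since an arm of 2 libraries raises the count by construction). Genes called in the other pathway lists were 1 with edgeR, 10 with limma-voom, 9 with no filter, 4 at an adjusted p under 0.1, 3 with the replicate block, 2 with DESeq2 size factors, total counts, cyclic loess or at least 10 counts in every library, and 1 to 10 without 1 library.

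Under the replicate block, 46 genes were called, 36 of them shared with the fit without it, and *Prc1* was the 1 member called (adjusted p = 0.0310, edgeR). The deviations of same-numbered libraries had correlations of -0.14, -0.20 and 0.01, so the libraries share only a number.

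Fold changes near 0 changed sign. *Aurka* was at -0.0020 with DESeq2 and *Ndc80* at -0.023 with cyclic loess. Without 1 library, the log2 fold change ranged from -0.053 to 0.43 for *Cenpw*, -0.088 to 0.18 for *Ndc80*, -0.11 to 0.21 for *Bub1b*, -0.11 to 0.10 for *Aurka*, -0.24 to 0.024 for *Foxm1*, -0.12 to 0.32 for *Kif23*, -0.16 to 0.25 for *Cit* and -0.20 to 0.020 for *Rhoa*. *Prc1* ranged from -1.37 to -1.08 and was called in 3 of 6 such fits, and *Cenpf* in 2 of 6. The cause was not tested.

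At 726378 to 931168 counts per library, *Kif14*, *Kif20a* and *Ube2s* had too few counts for a test. *Kif20a* shares 1271 of 4338 exon bases with *Cdc23* and *Ube2s* 183 of 5141 with *Rpl28*, both on the opposite strand, and the part of shared bases in their low counts was not tested.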
